A study of Rattus norvegicus with 8 samples.

Results

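Neurotrophic factor genes and the genes of their receptors were followed in rat hippocampal slice cultures on 8 expression arrays. The 8 genes were Bdnf, Ntf3, Ntrk2, Ntrk3, Ngfr, Gdnf, Gfra1 and Cntf. Every probe set to which the platform annotation gives one of these symbols and no other was taken, which gave 14 of the 31099 probe sets on the array. Ntrk2 had 5 probe sets, Bdnf and Gfra1 had 2 each, and the others had 1 each. Of these 14 probe sets, 10 were bright enough on average to enter the tests and 4 were not, and all 14 are described. The cultures are thin slices of hippocampus kept alive in a dish, from which the pyramidal cell field CA1 or CA3 was dissected, and each array holds total RNA of 15 such dissected cultures at 7 days. There were 3 CA1 control arrays, 3 CA3 control arrays, 1 CA1 lesion array and 1 CA3 lesion array. The sample titles number the controls of each field 1 to 3 and give both lesion arrays the number 1. The labels do not say what these numbers mark. What the lesion was, when the 7 days began, and the strain and age of the rats are not stated in the labels. Nor do they say whether arrays of a group came from separate animals, so the p-values rest on a spread between arrays that may be technical.

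Neurotrophins are secreted proteins that are made as longer precursors and cut to their mature form. Bdnf encodes brain-derived neurotrophic factor, which acts mainly through the receptor tyrosine kinase TrkB, the product of Ntrk2, and Ntf3 encodes neurotrophin-3, which acts mainly through TrkC, the product of Ntrk3. Ngfr encodes the low-affinity receptor that binds all neurotrophins and their precursors. Gdnf encodes a factor of a separate family, which signals through the co-receptor encoded by Gfra1 and the kinase Ret, and Cntf encodes a cytokine that is made mainly by glial cells. In the hippocampus Bdnf is made by pyramidal and granule neurons and is induced by neuronal activity. TrkB exists as a full-length kinase, found mainly in neurons, and as truncated forms without the kinase, of which the main one is abundant in astrocytes. The annotation gives each of the 5 Ntrk2 probe sets a different source transcript but does not say which of these forms each one reads.

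Bdnf is transcribed from several starts, each with its own promoter, and an array signal does not separate them. The RefSeq promoter table for the GRCr8 assembly lists 6 starts of Bdnf and holds 5 of the 8 genes. The 250 bases before Bdnf starts 1 and 4 of the table are shown because Bdnf is the factor on which most of the results below turn, and those of Cntf because its control arrays did not overlap between the fields. They lie on the plus strand at chr3:116619383-116619632 and chr3:116637608-116637857 for Bdnf, and on the minus strand at chr1:219314536-219314785 for Cntf. The letters TGACG, the core of the cAMP response element through which neuronal activity acts on many genes, were searched on both strands. GGGCGG (the GC box), TATAAA (the core of the TATA box) and CAGCTG (an E box) were searched in the same way, and matches are in capitals.
Bdnf start 1: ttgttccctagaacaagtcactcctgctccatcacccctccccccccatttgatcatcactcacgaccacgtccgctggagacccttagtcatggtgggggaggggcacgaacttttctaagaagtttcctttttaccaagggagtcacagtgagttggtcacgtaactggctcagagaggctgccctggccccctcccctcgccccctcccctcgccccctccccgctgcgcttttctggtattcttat
Bdnf start 4: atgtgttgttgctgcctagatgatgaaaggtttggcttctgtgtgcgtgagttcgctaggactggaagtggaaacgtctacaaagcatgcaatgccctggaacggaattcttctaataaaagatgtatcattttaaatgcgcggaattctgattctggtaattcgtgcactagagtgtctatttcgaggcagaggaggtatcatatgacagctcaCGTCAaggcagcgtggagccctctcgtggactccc
Cntf: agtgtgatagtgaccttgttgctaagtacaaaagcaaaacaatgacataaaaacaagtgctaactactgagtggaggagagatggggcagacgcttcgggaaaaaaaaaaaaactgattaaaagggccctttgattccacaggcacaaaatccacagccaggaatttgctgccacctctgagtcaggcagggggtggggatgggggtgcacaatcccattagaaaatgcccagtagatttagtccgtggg
The window before Bdnf start 4 held TGACG on the opposite strand, printed as CGTCA and beginning 35 bases before the start. The window before Bdnf start 1 and the Cntf window held no match to the 4 motifs. TGACG was present in 18.2% of all 33469 promoters of the table over the same length, GGGCGG in 30.5%, TATAAA in 12.9% and CAGCTG in 12.0%, so a match is a description of the letters. In the other windows, GGGCGG was found before Bdnf start 3, all 3 starts of Ntf3 and Gfra1, and TATAAA before Bdnf start 2 and Gdnf. CAGCTG was found before Bdnf starts 5 and 6, and TGACG also before Gdnf. The windows of Bdnf starts 5 and 6 overlap and hold the same CAGCTG site. Those of Ntf3 starts 1 and 2 overlap as well and hold the same GGGCGG site.

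The arrays were comparable in overall level, with median intensities from 561 to 815. The ratio of 3' to 5' Gapdh signal, a measure of RNA integrity that is higher in degraded RNA, was 3.71, 4.98 and 5.0 on CA1 controls 1 to 3, lay between 3.75 and 3.93 on the CA3 controls, and came to 4.65 for the lesion array of CA1 and 5.23 for that of CA3, the highest value. The field labels were checked against marker genes. Of 6 tested CA1 markers 4 were lower in CA3 past the threshold, and of 6 tested CA3 markers 3 were higher, with medians of -2.99 and 1.65 on the log2 scale. The lists of genes and markers were chosen with earlier results of these arrays known. As each array holds RNA of a mixed tissue, fewer cells of a type and less RNA per cell cannot be told apart.

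In the control cultures, the brighter Bdnf probe set read higher in CA3 than in CA1 on average, Cntf read higher in CA3 on every array, and the Ntrk2 probe set 1368972_at read lower in CA3 on every array. The differences were 1.98-fold, 1.5-fold and 1.83-fold. None of the 10 tested probe sets passed the threshold, which was a limma p under 0.05 after Benjamini-Hochberg adjustment over 18625 probe sets. Over the whole array 0.526% of probe sets passed for this comparison, 53 higher in CA3 (0.285%) and 45 lower (0.242%). An unadjusted p under 0.05 was found for 3 of the 10, the same 3 probe sets, against 8.31% of all probe sets tested.

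**Figure D1:**
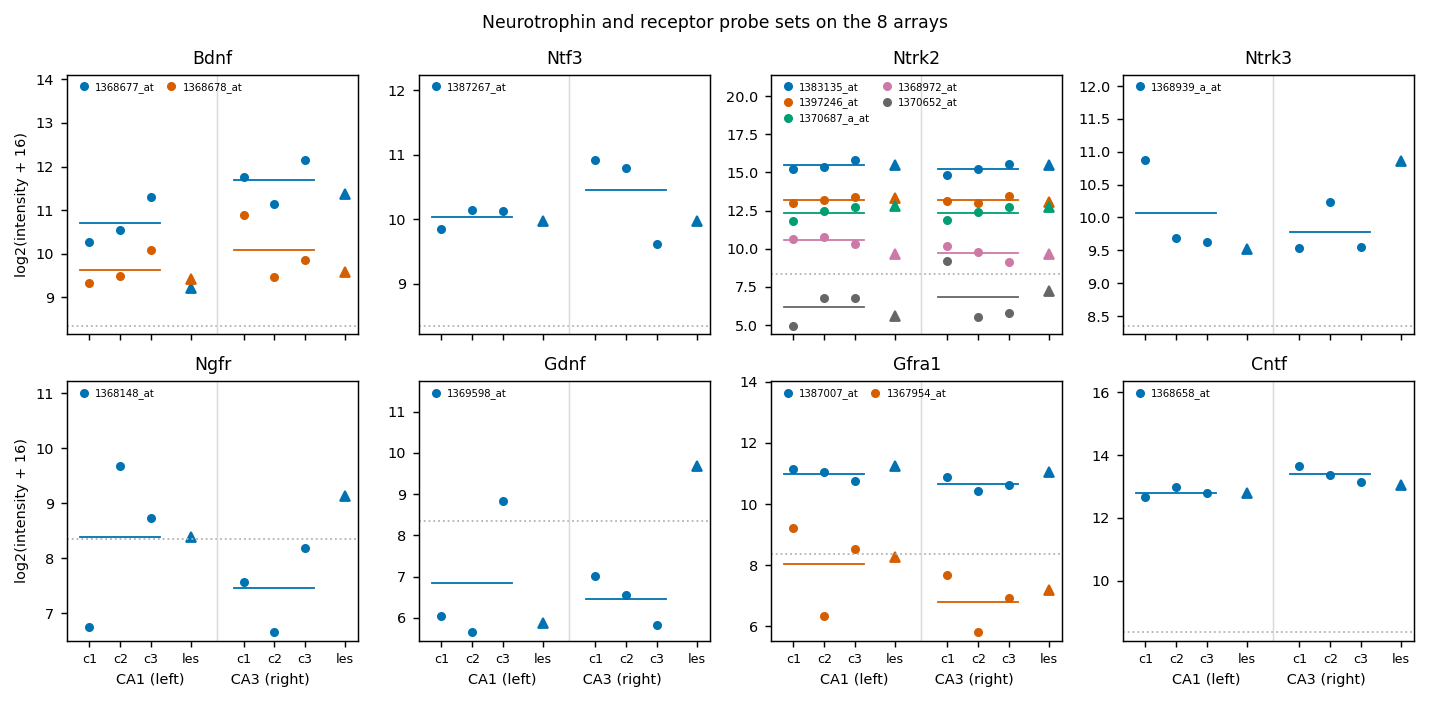
Level of each of the 14 probe sets, as log2(intensity + 16), on the 8 arrays, with 1 panel per gene and 1 colour per probe set. Circles are control arrays (c1 to c3), triangles lesion arrays (les), short lines the means of 3 controls, and the dotted line the brightness above which a probe set's mean had to lie to be tested. The upper Bdnf probe set lies lowest on the CA1 lesion array and highest on CA3 control 3.

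Among the ligands, Bdnf was read by the probe sets 1368677_at and 1368678_at. By the first, its intensities in controls 1 to 3 were 1213, 1469 and 2522 for CA1 and 3460.3, 2252 and 4556 for CA3. The groups overlapped on a single pair of arrays, since CA3 control 2 lay just under CA1 control 3. The difference of CA3 minus CA1 was 0.99 ± 0.35 on the log2(intensity + 16) scale (SE, 3 arrays in each field, adjusted p = 0.463 by limma), with an unadjusted 95% interval from 0.21 to 1.77. The second probe set read 627, 706 and 1074 in the CA1 controls and 1877, 697 and 917 in the CA3 controls. Here CA3 control 1 stood above all other arrays and the remaining controls of the fields were intermixed, so the 2 probe sets of Bdnf did not give the same picture. The difference was 0.44 ± 0.46 (adjusted p = 0.834), and it came to 0.03 without CA3 control 1.

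Markers of neurons in general, and of fibroblasts and meninges, also read higher in the CA3 controls. All 12 neuron markers had a higher mean in CA3, with a median difference of 0.52, and the neurofilament gene Nefl alone passed the threshold (2.18-fold, adjusted p = 0.0277). The summed intensity of the list over controls 1 to 3 was 426111, 382164 and 295379.9 for CA1 and 603100.5, 605301 and 431763 for CA3, and none of the markers was listed at 0. Of 8 fibroblast and meningeal markers 7 had a higher mean in CA3, with a median difference of 0.81. Ptgds, a prostaglandin synthase gene, alone passed (adjusted p = 0.00305), and 5 of the 8 had an unadjusted p under 0.05, against 8.31% of all probe sets tested. Their sum over controls 1 to 3 was 6869, 13729.7 and 8689 for CA1 and 34457, 29648 and 28730.3 for CA3, again with none listed at 0. The part of either list in the Bdnf, Cntf and Ntrk2 values was not tested.

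Ntf3 had intensities of 904, 1117 and 1110.5 in the CA1 controls and 1930.3, 1761 and 771 in the CA3 controls. CA3 controls 1 and 2 lay above every CA1 control and CA3 control 3 below all of them. The difference of 0.40 ± 0.39 (adjusted p = 0.823) was smaller than the SD among CA3 controls, 0.72. Cntf had intensities of 6428, 8015 and 7098 in CA1 and 12839.8, 10622 and 9085 in CA3, with no overlap between the fields. Its difference was 0.59 ± 0.19 (adjusted p = 0.382), with an unadjusted 95% interval from 0.17 to 1.01. Gdnf was dim, at 50.0, 34.4 and 441 in CA1 and 114, 77.9 and 40.5 in CA3, and its probe set fell under the brightness limit. CA1 control 3 stood alone above the other controls, and without a filter the adjusted p of the field difference (-0.38) was 0.96.

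None of the 4 tested Ntrk2 probe sets passed the threshold between the fields. The brightest, 1383135_at, had intensities of 38471, 42667 and 58884 in the CA1 controls and 29841, 38948 and 48725 in the CA3 controls. These ranges overlapped over most of their length, and the difference was -0.26 ± 0.22 (adjusted p = 0.795). Probe set 1397246_at read 8272, 9347 and 10529 in CA1 and 8778, 8200.4 and 11009 in CA3, a difference of -0.01 ± 0.18 (adjusted p = 0.992). The unadjusted 95% interval of that difference ran from -0.42 to 0.40, the narrowest among the 10. Probe set 1368972_at, by contrast, read 1603, 1722 and 1257 in CA1 and 1139, 889 and 542 in CA3. All CA3 controls lay below all CA1 controls, but the difference of -0.87 ± 0.37 on the log2 scale did not pass the threshold (adjusted p = 0.584). The dimmest probe set, 1370652_at, was not tested and read 15.1, 94.1 and 92.2 in CA1 and 582, 30.2 and 38.6 in CA3, so that CA3 control 1 alone stood high.

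Ntrk2 probe set 1370687_a_at read 3654, 5568 and 6939 in controls 1, 2 and 3 of CA1, and 3686, 5452 and 6672 in those of CA3. The fields had nearly the same values for each control number, and the numbers differed more from each other than the fields did. The difference between the fields was -0.02 ± 0.29 (adjusted p = 0.989). The brightest Ntrk2 probe set had the same order of controls in both fields, lowest on control 1 and highest on control 3. These were 2 of the 10 member probe sets (20%). Of all probe sets tested, 25% had their controls in the same order in both fields, and 6.34% had the order found here.

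Glial marker lists had their control arrays in that order too, though by summed intensity it was not found in glial lists alone. The summed intensity of 4 dentate granule cell markers over controls 1 to 3 was 28008, 43516 and 64275 for CA1. For CA3 it was 31502, 33714 and 39484. Centred on each gene's mean over the arrays, the median of these 4 fell instead in CA3 (0.16, -0.15 and -0.39). The summed intensity of 10 astrocyte markers over controls 1 to 3 was 1135473, 1183584 and 1586754 for CA1 and 1012301, 1122099 and 1229206 for CA3. That of 12 microglia markers was 7175, 17485 and 102482 for CA1 and 6938, 13029 and 85251 for CA3. For 9 markers of myelinating cells it was 74301, 297395 and 610535 and 92456, 261993 and 432243, and none of the markers in these lists was listed at 0. On the lesion arrays of CA1 and CA3 the sums were 1524572 and 1638816 for astrocyte markers, 145818 and 103856 for microglia markers, and 558078 and 595739 for myelin markers. The part of these cells in the Ntrk2 values was not tested.

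**Figure D2:**
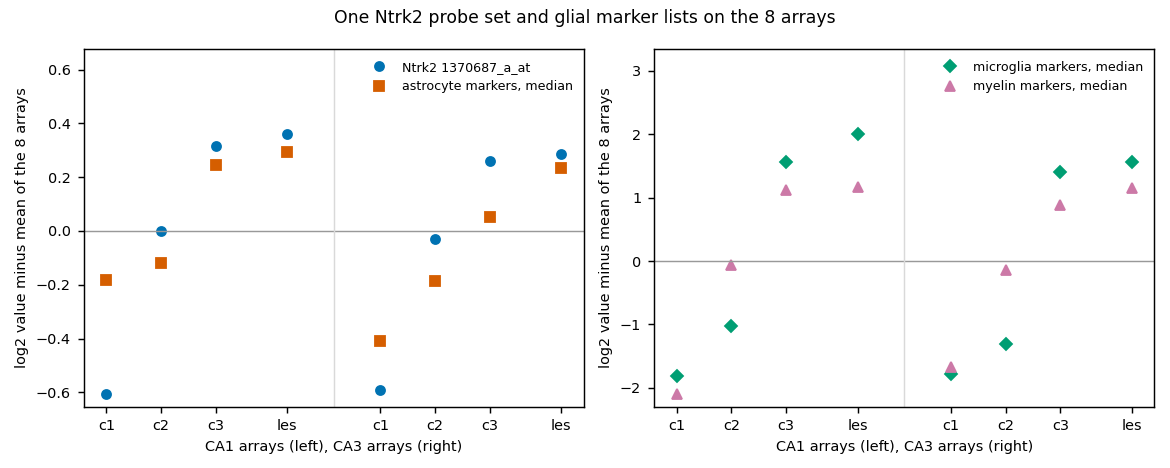
Ntrk2 probe set 1370687_a_at and the median of 10 astrocyte markers (left), and the medians of 12 microglia and 9 myelin markers (right), on each array, as log2(intensity + 16) minus the mean of the 8 arrays. Axis labels are c1 to c3 for controls and les for the lesion array, and in each field the Ntrk2 probe set is lowest on control 1 and highest on the lesion array.

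Ntrk3 read 1870.5, 809 and 775 in the CA1 controls and 729, 1185 and 732 in the CA3 controls. CA1 control 1 and CA3 control 2 stood above the other controls of their fields, and the difference was -0.29 ± 0.43 (adjusted p = 0.889). The brighter Gfra1 probe set, 1387007_at, read 2238, 2083 and 1705 in CA1 and 1897, 1369 and 1570.2 in CA3, with CA3 control 1 inside the CA1 range, and differed by -0.32 ± 0.25 (adjusted p = 0.782). The dimmer one, 1367954_at, was not tested and read 585, 65.1 and 355 in CA1 and 187, 40.1 and 105 in CA3. Ngfr was also under the brightness limit, at 91.8, 802 and 407 in CA1 and 173, 84.8 and 275 in CA3, a 9.45-fold spread over the 6 controls, most of which was also found within CA1. Of the 10 tested probe sets, 4 were higher and 6 lower in CA3, with a median difference of -0.02 against -0.04 for all probe sets tested. The control arrays of the fields did not overlap for 2 of the 10, against 14.9% of all probe sets, with CA3 above CA1 for 1 (6.06% of all) and below for 1 (8.85%).

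**Figure D3:**
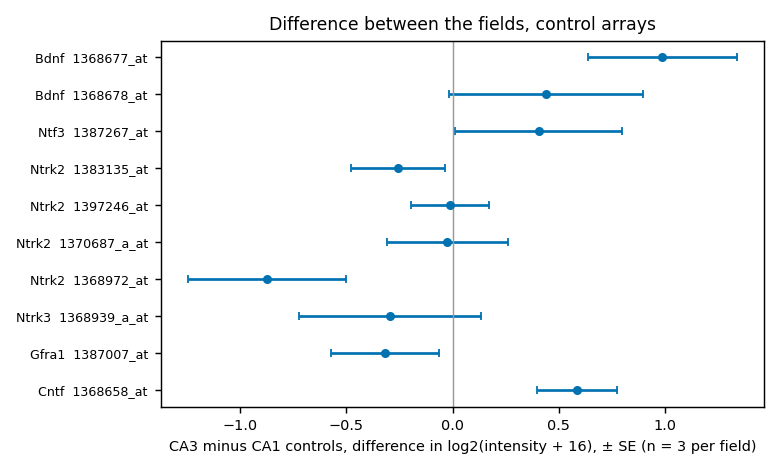
Difference of CA3 minus CA1 control arrays for the 10 tested probe sets, in log2(intensity + 16). Points are differences of means over 3 arrays per field and bars are limma standard errors. The brighter Bdnf probe set (0.99) and Cntf (0.59) lie to the right of 0, and Ntrk2 1368972_at (-0.87) to the left.

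In the lesion cultures no member probe set passed the threshold in CA1, in CA3, in the mean of both fields or in the difference between the fields, and 0% of all probe sets did in each of these comparisons. These comparisons use the same 6 control arrays, and the single array of each lesion group was assumed to vary as much as the controls. With a term for the title numbers in the fit, probe sets did pass in all of them but the difference between the fields, as described under the processing. The values here are from the fit without that term. Unadjusted p-values under 0.05 were found for 6.41% of all probe sets in the mean lesion effect, 3.63% in CA1, 4.68% in CA3 and 3.09% in the difference of the lesion effects. Among the 10 members there was 1 in the mean lesion effect and 1 in CA1, both the brighter Bdnf probe set, and there were 0 in the others. The lesion array lay outside the range of its 3 controls for 5 of 10 member probe sets in CA1 and 4 of 10 in CA3, against 46% and 54.4% of all probe sets, which is near the background. In CA1 the lesion array was below all controls for 3 of the 10, against 24.8% of all probe sets, and in CA3 it was above all controls for 3 of the 10, against 29.7%.

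Cell markers on the lesion arrays also differed from the means of the controls. The mean lesion effect was below 0 for all 12 neuron markers (median -0.31) and above 0 for all 10 tested microglia markers (median 2.60). Of either list 0 markers passed the threshold, and 2 and 9 had an unadjusted p under 0.05, against 6.41% of all probe sets tested. Centred on each gene's mean over the arrays, the neuron list median was 0.09, -0.07 and -0.54 on CA1 controls 1 to 3. It was -0.49 on the CA1 lesion array. In CA3 it was 0.70, 0.48 and -0.04 on the controls and -0.04 with the lesion. The median of 12 microglia markers was -1.82, -1.02 and 1.56 on the CA1 controls and 2.01 with the lesion. In CA3 it was -1.78, -1.31 and 1.40, and 1.57 with the lesion. In both lists each lesion array lay nearer to control 3 of its field than to controls 1 and 2. The part of these cells in the lesion values of the members was not tested.

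Among ligands, the brighter Bdnf probe set read 575 on the CA1 lesion array, below all CA1 controls (1213, 1469 and 2522), and 2634 on the CA3 lesion array, inside the range of the CA3 controls. The CA1 lesion array differed from controls 1 to 3 by -1.06, -1.33 and -2.10 log2 units. The fitted difference was -1.50 ± 0.50 in CA1 (SE, 1 lesion array against 3 controls, adjusted p = 0.999 and unadjusted p = 0.0127 by limma), which is 2.82-fold lower, and -0.32 ± 0.50 in CA3 (adjusted p = 0.95). The lesion effects of the fields differed by 1.18 ± 0.70 (adjusted p = 1, unadjusted p = 0.123), so a difference between them was not shown. The second Bdnf probe set read 667 in CA1 and 747 in CA3, each inside the range of its controls, with differences of -0.22 ± 0.64 and -0.50 ± 0.64. The lower value of the first probe set in CA1 was thus not matched by the second. The neuron markers summed to 301386 on the lesion array of CA1 and 414600.4 on that of CA3, inside the CA1 control range and below the CA3 controls. In CA1 that sum lay just above the lowest control, and 9 of the 12 markers were below the control mean (median -0.36).

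Ntf3 read 986 in CA1 and 990.5 in CA3, both within the control ranges (differences of -0.07 ± 0.56 and -0.47 ± 0.56). Cntf read 7138 in CA1, in the middle of its controls, and 8442 in CA3, below all 3 controls, with differences of -0.60, -0.33 and -0.11 log2 units. The fitted CA3 difference of -0.35 ± 0.27 had an adjusted p of 0.937. Gdnf read 43.3 on the lesion array of CA1 and 805 on that of CA3, where the 3 CA3 controls read 114, 77.9 and 40.5. The CA3 value was the highest of the 8 arrays and lay 9.30-fold above the mean of its controls on the log2(intensity + 16) scale, while CA1 control 3 also stood apart from its group, at 441. Without a filter the adjusted p of the CA3 difference was 0.958 and the unadjusted p was 0.0401.

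**Figure D4:**
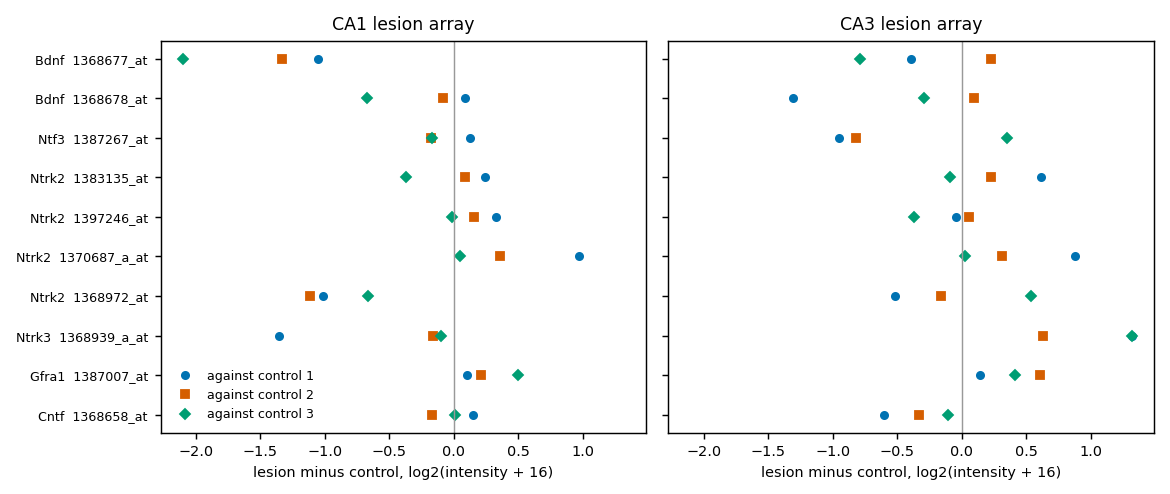
Lesion array minus each of the 3 control arrays of the same field, in log2(intensity + 16), for the 10 tested probe sets, CA1 on the left and CA3 on the right. Points to the left of 0 are lower on the lesion array. Bdnf 1368677_at lies left of 0 against all 3 CA1 controls (-1.06 to -2.10), and Ntrk3 right of 0 against all 3 CA3 controls (0.63 to 1.32).

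Among receptors, Ntrk2 probe set 1370687_a_at read 7154 on the CA1 lesion array and 6786 on the CA3 lesion array, in each field just above control 3, the highest control. It differed from controls 1 to 3 by 0.97, 0.36 and 0.04 in CA1 and by 0.88, 0.32 and 0.02 in CA3. The size of the difference thus depended on the control array, and it was largest against control 1, which shares its title number with the lesion arrays. The mean lesion effect was 0.43 ± 0.29 (2 lesion arrays against 6 controls, adjusted p = 0.812). With a term for the title numbers in the fit (the replicate block described below) it was 0.92, and the call changed. Probe set 1368972_at read 785 in CA1, below all CA1 controls, and 792 in CA3, inside the control range, with differences of -0.93 ± 0.53 (adjusted p = 0.999) and -0.05 ± 0.53. The lesion arrays of the fields, which had non-overlapping controls for this probe set, read nearly the same. The brightest Ntrk2 probe set read 45402 and 45631 on the CA1 and CA3 lesion arrays, and 1397246_at read 10400.2 and 8507, all inside the ranges of their controls.

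Ntrk3 read 722 on the CA1 lesion array, just below the lowest CA1 control, and 1846 on the CA3 lesion array, above all CA3 controls and near the level of CA1 control 1. The differences were -0.54 ± 0.60 in CA1 (adjusted p = 0.999) and 1.09 ± 0.60 in CA3 (adjusted p = 0.937), the latter 2.13-fold higher. Of all probe sets tested, 9.49% had lesion arrays outside their controls on opposite sides in the fields, as Ntrk3 did. The brighter Gfra1 probe set read 2409 in CA1 and 2090.3 in CA3, above all controls of each field, with a mean lesion effect of 0.33 ± 0.25 (adjusted p = 0.825), a 1.25-fold difference. Its other probe set read 293 and 129, inside the control ranges. Ngfr read 318 in CA1, inside its control range, and 548 in CA3, above all CA3 controls (173, 84.8 and 275) but below CA1 control 2 (802). Without a filter the adjusted p for Ngfr in CA3 was 0.958.

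The rest of the pathway was taken from 7 lists with 127 genes, of which 107 were on the array and 87 were bright enough to be tested, each by its brightest probe set. For the field comparison 1 of the 87 passed, 1.15% against the 0.526% of all probe sets, and for each lesion comparison 0 passed. An unadjusted p under 0.05 was found for 10 of the 87 between the fields, against 8.31% of all probe sets tested. In the mean lesion effect it was found for 10 (6.41% of all), in CA1 for 4 (3.63%) and in CA3 for 7 (4.68%). For the difference of the lesion effects there were 3 (3.09%). The gene that passed was Cadps2, which encodes a calcium-dependent activator of dense-core vesicle release that is known in mice to promote secretion of BDNF. Its intensities were 7137, 10268 and 7988 in the CA1 controls and 1893, 3287 and 1349 in the CA3 controls, and the fields were far apart, with 7549.6 on the CA1 lesion array and 1656 on the CA3 lesion array, inside the range of the controls of each field. Cadps2 was 4.09-fold lower in CA3, a difference of -2.03 ± 0.31 on the log2 scale (SE, adjusted p = 0.0219). Leaving out single arrays ended the call for CA1 controls 1 (adjusted p = 0.0714), 2 (0.156) and 3 (0.0538) and for CA3 control 1 (0.118), as did a fit with no intensity trend in the variances (0.240). The difference stayed between -2.38 and -1.74 over the alternatives.

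Of 11 other neurotrophin receptor and co-receptor genes tested, 5 were higher and 6 lower in CA3, with a median of -0.02. The sortilin-family receptor genes Sorcs3 and Sorcs2 had the smallest p. Sorcs3 read 4374, 2686 and 2230.4 in CA1 and 2349, 1338 and 1134 in CA3 (-0.95 ± 0.35, adjusted p = 0.486), and Sorcs2 read 3118, 2515 and 3021 and 1515, 2135 and 2015 (adjusted p = 0.542). All CA3 controls lay below all CA1 controls for Sorcs2, while for Sorcs3 CA3 control 1 lay just above CA1 control 3. On the lesion arrays 8 of the 11 had a mean effect below 0 (median -0.29, all probe sets 0.02). Lingo1, a partner of the low-affinity receptor in the myelin inhibitor receptor complex, read 10944 on the CA1 and 7704 on the CA3 lesion array, each below its controls (16769, 11569 and 13764 in CA1 and 15433, 11554 and 14049 in CA3, mean lesion effect -0.58 ± 0.19, adjusted p = 0.771). Sorcs2 read 1536 and 1847 on these arrays (adjusted p = 0.798), below all controls in CA1 alone.

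In the GDNF family 6 genes were tested, 2 higher and 4 lower in CA3. Nrtn, the ligand neurturin, read 737, 96.3 and 236 in CA1 and 974, 939 and 1162 in CA3, with all CA3 controls above all CA1 controls (1.90 ± 0.66, adjusted p = 0.448). Gfra2, its preferred co-receptor, read 1041, 1404 and 1325 in CA1 and 1099, 475 and 615 in CA3 (adjusted p = 0.632), with CA3 control 1 inside the CA1 range. On the CA1 and CA3 lesion arrays Gfra4, the co-receptor of persephin, read 123 and 128, below all controls (417, 1475 and 460.1 in CA1 and 468, 372 and 351 in CA3, adjusted p = 0.771), and Nrtn read 773 and 1435, above all controls of each field (adjusted p = 0.812).

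Of 8 genes of the CNTF cytokine group, 3 were higher and 5 lower in CA3. Cntfr, the ligand-binding receptor of CNTF, read 2635, 2056 and 3240.0 in CA1 and 2017, 2589 and 1648 in CA3 (adjusted p = 0.777), with overlapping ranges, and Jak1, a kinase of its signalling, 22849, 26982 and 24500.0 and 29712, 26489 and 28354 (adjusted p = 0.776). In the mean lesion effect 7 of the 8 were higher, with a median of 0.08. Ctf1, the cytokine cardiotrophin, read 1982 and 1982 on the lesion arrays, above all controls (1543, 1029 and 1214 in CA1 and 1608, 1079.9 and 1405 in CA3, adjusted p = 0.784). The kinase gene Jak2 read 1663 and 2167, just above its CA1 controls (1659, 1492 and 1612) and above its CA3 controls (1121, 1409 and 1656, adjusted p = 0.817).

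Among 10 tested processing and release genes, 7 were higher and 3 lower in CA3. Beside Cadps2, Cpe, a carboxypeptidase and sorting receptor for BDNF precursor, read 613083 on the CA3 lesion array and 333116, 318172 and 293654 in the CA3 controls (0.96 ± 0.22, adjusted p = 0.398). The CA1 lesion array read 438560.0, inside the CA1 control range (394140.0, 387217 and 460218). The mean lesion effect of Cpe was 0.53 ± 0.15 (limma adjusted p = 0.771). Between the fields all CA3 controls of Cpe lay below all CA1 controls, with a difference of -0.39 ± 0.15 (limma adjusted p = 0.535). Plat, which encodes the activator of plasmin, a protease that cuts BDNF precursor, read 13163 and 15400.5 on the lesion arrays (adjusted p = 0.812 for the mean lesion effect), against 10161, 9547 and 13059 in the CA1 and 7626, 11597 and 16302 in the CA3 controls.

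Of 22 Trk signalling genes 13 were higher and 9 lower in CA3 (median 0.07), and of 13 genes of low-affinity receptor signalling 9 were higher and 4 lower (median 0.06). In the mean lesion effect 12 of the 22 and 9 of the 13 were higher, with medians of 0.03 and 0.12. The kinase gene Rps6ka5 read 1611, 1629.5 and 1218 in the CA1 and 739, 858 and 858 in the CA3 controls, without overlap (-0.84 ± 0.29, adjusted p = 0.456). The adaptor gene Sh2b1 read 7412, 4008 and 6838 in CA1 and 3467, 4447 and 3881 in CA3 (adjusted p = 0.587), where CA1 control 2 lay inside the CA3 range. The adaptor gene Shc1 read 3873 and 3105 on the CA1 and CA3 lesion arrays, above all controls (1338, 756 and 3235 in CA1 and 1796, 1307 and 2762 in CA3, adjusted p = 0.771 for the mean lesion effect), and Rps6ka5 had an adjusted p of 0.796. For the low-affinity receptor list the smallest p for the fields belonged to the kinase gene Mapk9 (0.51 ± 0.30, adjusted p = 0.697) and the protease gene Adam17 (-0.70 ± 0.59, adjusted p = 0.792). In the mean lesion effect it belonged to the adaptor gene Maged1 (-0.29 ± 0.18, adjusted p = 0.81) and the caspase gene Casp6 (0.98 ± 0.64, adjusted p = 0.812).

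Of 21 tested genes that respond to BDNF or to neuronal activity, 0 passed in the lesion comparisons and 17 had a mean lesion effect below 0 (median -0.46, all probe sets 0.02), 18 in CA1 and 15 in CA3. An unadjusted p under 0.05 was found for 7 of the 21 in the mean lesion effect, against 6.41% of all probe sets tested. Centred on each gene's mean over the arrays, the list median was 0.22, -0.06 and 0.84 on CA1 controls 1 to 3 and -0.27 on the CA1 lesion array. In CA3 it was -0.07, -0.29 and 0.56 on the controls and -0.31 with the lesion. The CA3 lesion array was thus close to CA3 control 2, and control 3 was the highest in each field. Neuron markers (12 of 12 below 0) and interneuron markers (5 of 7 below 0) each had a median mean lesion effect of -0.31, and their part in these values was not tested. Scg2, a precursor of secreted peptides, read 19267 and 19702 on the CA1 and CA3 lesion arrays, below all controls (48086, 35656 and 33792 in CA1 and 37149, 35496 and 32291 in CA3), with a mean lesion effect of -0.92 ± 0.17 (adjusted p = 0.438). The transcription factor gene Junb read 445 on the CA1 lesion array against 2284, 2252 and 3499.6 in its controls, and 1633 on the CA3 lesion array, inside its control range (2146, 1413 and 1769.9, adjusted p of the mean lesion effect = 0.569). In the control fields 5 of the 21 were higher and 16 lower in CA3. Ptgs2, the inducible cyclooxygenase, read 826, 964 and 2149.7 in the CA1 and 4477, 2134 and 4194 in the CA3 controls (2.83-fold, adjusted p = 0.276), with CA3 control 2 just under CA1 control 3, as for the brighter Bdnf probe set. Arc, which encodes a synaptic protein, read 2119, 1581 and 3408 in CA1 and 1541, 757 and 1548 in CA3 (adjusted p = 0.587).

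By the distance between their values over the 8 arrays, the genes most like Bdnf 1368677_at were Sncg, Srek1ip1 and Cdkn1c, at root mean square distances of 0.30, 0.32 and 0.45 log2 units after each was centred on its own mean. The median distance over the 10843 genes compared was 0.96. Sncg, which encodes gamma-synuclein, had log2 values of 11.35, 11.04 and 11.56 in the CA1 controls and 12.24, 12.12 and 13.21 in the CA3 controls, and of 10.02 and 12.41 on the CA1 and CA3 lesion arrays. As for Bdnf, the CA1 lesion array was the lowest and CA3 control 3 the highest. For Ntrk3 they were Rapsn (0.18), Anapc13 (0.30) and Pigbos1 (0.32), against a median of 0.65. Rapsn had log2 values of 9.40, 8.69 and 8.57 in the CA1 controls and 8.54, 9.14 and 8.13 in the CA3 controls, and of 8.50 and 9.72 on the CA1 and CA3 lesion arrays. For Ntf3, Ntrk2, Gfra1 and Cntf the group means of the brightest probe set spanned less than 1 log2 unit, and Ngfr and Gdnf were under the brightness limit, so their nearest genes were not sought.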

How the data were processed

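Each array holds total RNA of 15 cultures. The deposited values are linear intensities, 1 per probe set and array. The 2% trimmed mean was near 2501 on each array, which was taken for a scaling by the authors to a common level and kept. No source used here gives the summarisation software, and the number of arrays limits the precision. Intensities were converted to log2(value + 16), a scale that understates changes of dim probe sets. After removal of 57 control probe sets, those with a mean under the 40th percentile were left out of the tests. With limma 3.58.1 (R 4.3.3), the 4 group means were fitted over the 8 arrays, and the variances were moderated with an intensity trend (4 residual degrees of freedom). The procedure was also run on simulated data with independent noise of the fitted variances. Those data held no effect shared by arrays of the same number, so that run cannot check for one. P-values were adjusted by Benjamini-Hochberg over 18625 probe sets. Members, lists and tests were chosen with earlier results of these data known. All member probe sets are named, as are list genes past the threshold and otherwise the 2 with the smallest p for the fields and for the mean lesion effect, and the 3 genes nearest in pattern to a member whose group means span 1 log2 unit. Alternatives were quantile normalisation, other pseudocounts and filters, no variance trend, and removal of probe sets with the suffix _x_at, _s_at or _a_at. That removal also took out Ntrk2 1370687_a_at and the Ntrk3 probe set, which were thus not tested in it. The others were a replicate block (a term for the title numbers), leaving out each array, the controls alone, an additive model and gene means.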

Additional observations from a re-analysis of the deposited data

Results flagged for a closer look

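Ntrk3 lay outside its controls in opposite directions on the lesion arrays of the fields, below all 3 CA1 controls in CA1 and above all 3 CA3 controls in CA3. The lesion effect in CA3 exceeded that in CA1 by 1.63 ± 0.85 on the log2 scale, and its test did not pass (limma adjusted p = 1, unadjusted p = 0.0852). Of all probe sets tested, 9.49% had lesion arrays outside their controls on opposite sides. In CA1 the lesion array differed from controls 1 to 3 by -1.35, -0.16 and -0.10. Most of the CA1 difference thus rested on control 1, and it was -0.13 without that array. Control 1 is also the control with the title number of the lesion array.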

How the results depend on the processing

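No member probe set passed the threshold under any alternative except the replicate block, in which Ntrk2 1370687_a_at alone passed, in the mean lesion effect (0.92, adjusted p = 0.0256), which gave 1 member. The replicate numbers were not taken to pair the arrays, since the deviations of same-numbered controls from their group means correlated at 0.16, 0.06 and 0.31, of which 1 is near 0. However, each CA1 control correlated best with the CA3 control of its own number. The summed astrocyte, microglia and myelin markers also rose from control 1 to control 3 in both fields. The correlations thus cannot decide whether arrays of the same number share an effect. The fit without the block leaves any such effect in the spread between arrays. With the block the counts of probe sets past the threshold were 358 for the fields (98 without it), 697 for the mean lesion effect, 258 in CA1 and 310 in CA3 (0 without it), and those of other pathway genes were 2, 7, 3 and 5. Other counts that moved were 0 probe sets and 0 pathway genes for the fields without a variance trend, 40 genes with probe sets averaged per gene, and 5 probe sets for the CA3 lesion effect under quantile normalisation, a pseudocount of 1, or without probe sets of the suffixes _x_at, _s_at and _a_at. With each array left out in turn, the field count ran from 24 (without CA1 control 2 or CA3 control 2) to 104, with 47 without CA1 control 1 and 27 without CA3 control 1, the count of pathway genes from 0 to 1, and the mean lesion count from 0 to 1. The cause was not tested.

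Of 788 alternative values for single probe sets, 757 kept direction and side of the threshold, 5 (all of Cadps2 between the fields) lost the call, 1 gained it and 25 changed sign, all of differences that did not pass. For the fields, leaving out an array gave -0.14 to 0.074 for Ntrk2 1397246_at, -0.28 to 0.21 for 1370687_a_at and -0.52 to 0.11 for Ntrk3. For the mean lesion effect it gave -0.027 to 0.080 for 1397246_at. In CA1 it gave -0.38 to 0.0025 for the dimmer Bdnf probe set, -0.14 to 0.16 for Ntrk2 1383135_at and -0.079 to 0.080 for Cntf, and in CA3 -0.21 to 0.0039 for 1397246_at and -0.34 to 0.19 for 1368972_at. For the difference of lesion effects it gave -0.58 to 0.13 for the dimmer Bdnf probe set and -0.29 to 0.20 for 1370687_a_at, which was 0.020 under quantile normalisation. The replicate block gave -0.016 for Ntrk3 in the mean lesion effect, 0.29 for 1383135_at in CA1 and 0.0041 for 1397246_at in CA3. Quantile normalisation gave 0.015 for Ntf3 in CA1, and the mean of all Ntrk2 probe sets -0.0016 in the mean lesion effect. Dim probe sets (Ngfr, Gdnf, Gfra1 1367954_at and Ntrk2 1370652_at) spread 9.45-fold or more over the arrays, which limits what they can show.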

Other observations

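Some pathway genes outside the members had control values in the order 1, 2, 3 in both fields, as Ntrk2 1370687_a_at did, and are named after their values were seen. Ret, the kinase of the GDNF receptor, read 1419, 1969 and 2643 in controls 1, 2 and 3 of CA1 and 945, 1284 and 3034 in those of CA3, with 2908 and 2485 on the lesion arrays. Gab1, a docking protein downstream of receptor kinases, read 8842, 12278 and 18685 in the CA1 controls and 9401, 11057 and 15562 in the CA3 controls, with 16407 and 17003 on the lesion arrays. In the opposite order, Npy, which encodes neuropeptide Y and is also on the interneuron marker list, read 42009, 28772 and 12112 and 25719.8, 13604 and 11303, with 9093 and 11132 on the lesion arrays. For Ret, Gab1 and Npy the lesion arrays lay nearer to control 3 than to control 1, while their titles carry the number of control 1. Adam17 also had the order 1, 2, 3 in both fields, and Maged1, Sort1, Scg2 and Sorcs3 the opposite order. On the CA3 lesion array Sorcs3 read 2038, nearer to control 1 (2349) than to control 3 (1134). Of all probe sets tested, 6.34% had the order 1, 2, 3 in both fields. The shares with the opposite order, or with lesion arrays nearer to control 3, were not counted.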
